A study of Mus musculus with 12 samples.

Results

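Guanylate-binding proteins (GBPs) are large GTPases that cells make in response to interferon, and 8 mouse genes of the family, Gbp2 to Gbp9, were followed on 12 arrays of lung and liver. The genes were chosen on these same arrays, because their mRNA had been seen to be higher in mice given selenium, so the differences between the diets below are a description of chosen genes and carry no test. Of the 8 genes, 5 had a probe set (a group of array probes read as 1 value) that the array's annotation ties to a single gene, and these 5 genes had 8 probe sets of 29409 on the array. Gbp2, Gbp6 and Gbp7 had 2 probe sets each, and Gbp3 and Gbp8 had 1 each. Gbp4, Gbp5 and Gbp9 had none and were not analysed here. All 8 probe sets were listed with a signal on all 12 arrays, so none was lost to the requirement of at least 2 values in each group.

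Male wild-type FVB/N mice had received selenium-deficient diets from weaning. One diet had 0.1 ppm selenium added as sodium selenite (0.1 Se) and the other had 0 ppm added (0 Se), and both were fed for 6 weeks. Lung and liver RNA gave 4 groups of 3 arrays, which the labels describe as biological replicates: 0.1 Se lung, 0 Se lung, 0.1 Se liver and 0 Se liver. Values are log2 signals of the MAS5 algorithm, so a difference of 1 is a 2-fold change, and each array had been scaled separately. Each array listed a signal for 22197 to 22718 probe sets in lung and 17235 to 17923 in liver, and the medians of the listed log2 signals were 8.96 to 9.00 in lung and 9.16 to 9.21 in liver. The tissue labels matched their markers. The 5 lung epithelium markers (Sftpc, Sftpb, Scgb1a1, Ager and Cldn18) were listed on all 6 lung arrays, while 4 of them were blank on all 6 liver arrays, and of the hepatocyte markers Apoa1 and Ttr were blank on all 6 lung arrays.

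GBPs belong to the dynamin superfamily of GTPases. Interferon-γ, released mainly by natural killer (NK) cells and T cells, acts in part through the factor IRF1 to switch their genes on in macrophages, epithelium and endothelium. The proteins assemble on the membranes around intracellular bacteria and the parasite Toxoplasma, help to break these membranes, and bring bacterial products to inflammasomes, the complexes that activate inflammatory caspases. In the mouse the genes form 2 clusters. Gbp2, Gbp3, Gbp5 and Gbp7 lie on chromosome 3 and Gbp4, Gbp6, Gbp8 and Gbp9 on chromosome 5. Members of a cluster are close relatives in sequence, so a probe set named for one of them may also bind another, which was not tested.

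Promoter sequences of 3 measured GBP genes are shown because interferon signals act through short motifs near the start of their genes. Whether these motifs bear on the differences between the diets was not tested. The reference is RefSeq's GRCm38.p6 assembly of the C57BL/6J strain, not FVB/N. Each is the plus strand, 5′ to 3′, and gives the 110 bases before the RefSeq start, with the motifs below in capitals.
Gbp2, chr3:142620553-142620662: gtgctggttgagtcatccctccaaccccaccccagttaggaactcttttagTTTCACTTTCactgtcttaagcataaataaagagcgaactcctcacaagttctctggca
Gbp3, chr3:142559934-142560043: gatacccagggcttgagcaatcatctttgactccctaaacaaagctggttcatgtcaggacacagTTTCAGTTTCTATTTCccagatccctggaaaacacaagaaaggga
Gbp7, chr3:142530226-142530335: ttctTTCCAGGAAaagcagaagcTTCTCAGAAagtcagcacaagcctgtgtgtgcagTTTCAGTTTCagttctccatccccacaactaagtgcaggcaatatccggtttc
Capitals mark matches on either strand to GAAANNGAAA, the core of the interferon-stimulated response element (ISRE), bound by IRF factors, and to TTCNNNGAA, the interferon-γ-activated site (GAS). Here each ISRE match lies on the minus strand and reads as its reverse complement. Gbp2 held 1 ISRE match from 59 to 50 bases before the start, and Gbp3 held 2 that share bases with each other, from 45 to 36 and from 39 to 30. Gbp7 held 1 ISRE match from 53 to 44 bases before the start and 2 GAS matches, from 106 to 98 and from 87 to 79. RefSeq promoters were given for 4 of the 8 genes (Gbp2, Gbp3, Gbp5 and Gbp7), 5 windows of 250 bases in all because Gbp3 has 2 starts. Of these 5 windows 4 held an ISRE match and 2 a GAS match. The window of the other Gbp3 start held neither. Among 32851 windows of that length over all genes, 2.98% held an ISRE match, 7.02% a GAS match and 0.332% both. A match is a stretch of letters and no measured binding site.

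In lung, the mRNA of every measured GBP was higher with selenium, on every probe set and with no overlap between the diets. The differences of the 8 probe sets, 0.1 Se minus 0 Se, ran from 0.98 to 1.92 on the log2 scale (1.97-fold to 3.79-fold) with a median of 1.39, where the median over all 21655 probe sets compared in lung was -0.008. On 8 of 8 GBP probe sets the lowest 0.1 Se array lay above the highest 0 Se array. Over all probe sets listed on every lung array, 6.07% were separated in this direction. That share is given as background only, since the members were chosen on this contrast. Each value here is a mean over whole tissue, in which more cells that hold GBP mRNA and more GBP mRNA per cell cannot be told apart.

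**Figure D1:**
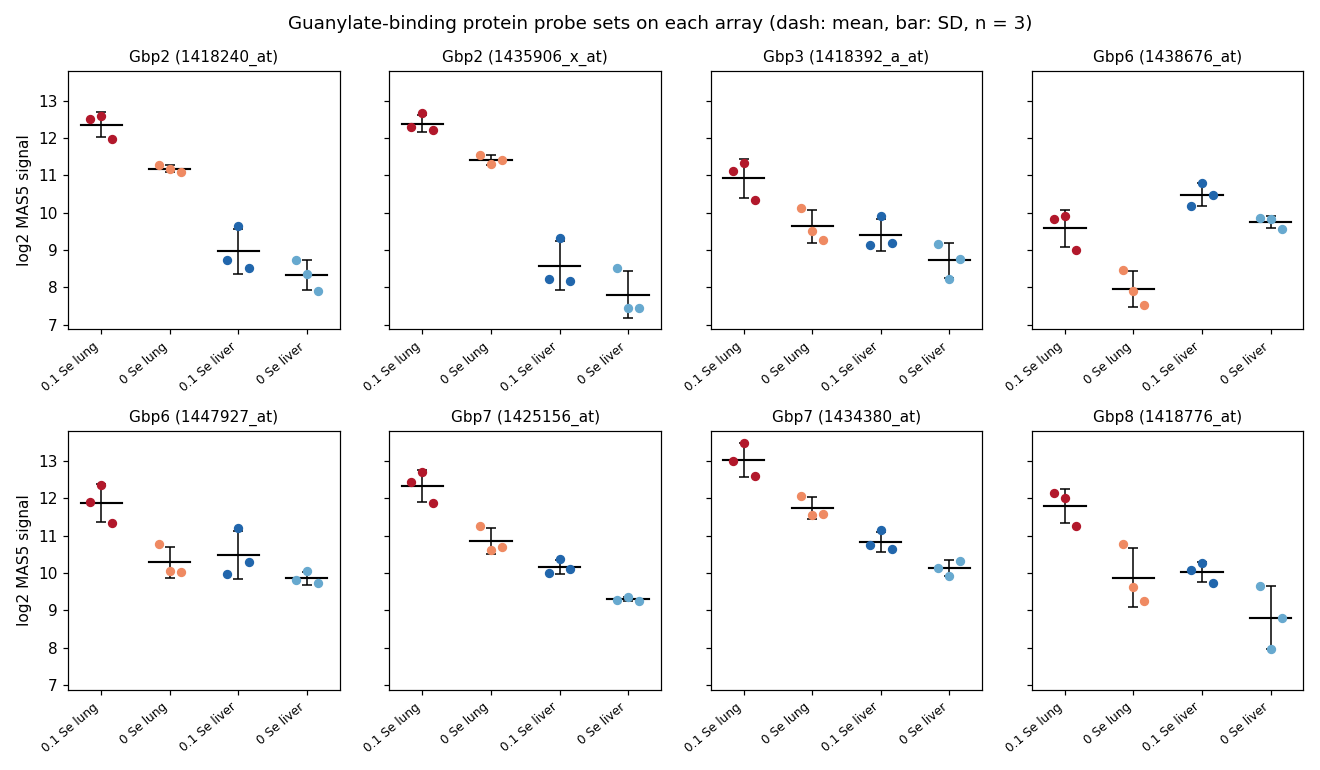
Log2 MAS5 signal of the 8 GBP probe sets on each array (points) in 0.1 Se lung, 0 Se lung, 0.1 Se liver and 0 Se liver, with the mean (dash) and SD (bar) of 3 arrays. In lung the 0.1 Se points lie above all 0 Se points on every probe set, and Gbp6 has its higher signals in lung on one probe set and in liver on the other.

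Among the genes of chromosome 3, Gbp2 is a membrane-anchored GBP that in mouse cells coats the vacuole of Toxoplasma and the surface of cytosolic bacteria. Its probe set 1418240_at read 12.52, 12.59 and 11.97 in 0.1 Se lung, against 11.28, 11.16 and 11.10 in 0 Se lung. The gap between the diets was 0.68 at its narrowest, and the 0 Se arrays lay close together. The difference was 1.17 ± 0.15 (SE), or 2.26-fold. The other probe set of Gbp2, 1435906_x_at, whose name marks probes that can bind related transcripts, read 12.29, 12.66 and 12.22 in 0.1 Se lung and 11.55, 11.30 and 11.40 in 0 Se lung. Its difference of 0.98 ± 0.12 was the lowest of the 8.

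Gbp3, a relative of Gbp2 that is also recruited to parasite vacuoles, read 11.11, 11.32 and 10.33 in 0.1 Se lung, against 10.12, 9.51 and 9.26 in 0 Se lung. The diets were separated by only 0.21 here, the narrowest gap of any GBP probe set in lung, and the difference was 1.29 ± 0.26. Gbp7 in mouse macrophages helps to bring oxidant-producing and autophagy proteins to bacteria. Its signals on 1434380_at were 13.00, 13.49 and 12.60 in 0.1 Se lung and 12.07, 11.56 and 11.58 in 0 Se lung, a difference of 1.29 ± 0.20. On 1425156_at they were 12.44, 12.71 and 11.87 in 0.1 Se lung and 11.26, 10.61 and 10.70 in 0 Se lung, a difference of 1.48 ± 0.21. Both Gbp7 probe sets put all 3 0.1 Se arrays at least 0.53 above the 0 Se arrays.

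The genes of chromosome 5 had the 3 widest differences. Gbp8, one of the less studied members, had linear signals of 4492, 4084 and 2465 in 0.1 Se lung, against 1750, 781 and 606 in 0 Se lung. On the log2 scale the 0 Se arrays spread over a wider range than the 0.1 Se arrays, and the difference was 1.92 ± 0.34, or 3.79-fold. Gbp6, which also gathers at vacuoles of intracellular pathogens, read 11.90, 12.36 and 11.34 in 0.1 Se lung and 10.77, 10.05 and 10.02 in 0 Se lung on 1447927_at, a difference of 1.59 ± 0.25. On its other probe set, 1438676_at, it read 9.82, 9.92 and 9.00 in 0.1 Se lung and 8.47, 7.89 and 7.52 in 0 Se lung, a difference of 1.62 ± 0.28. Both Gbp6 probe sets separated the diets, with changes of 3.00-fold and 3.07-fold.

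In liver the same 8 probe sets were also higher on average in 0.1 Se, by less. The differences ran from 0.62 to 1.21 (1.54-fold to 2.31-fold) with a median of 0.72, where the median over all 16575 probe sets compared in liver was -0.005. The diets were separated on 4 of 8, against 4.99% of all probe sets listed on every liver array, again a background figure for genes chosen on this contrast. These 4 were both probe sets of Gbp7, the 1438676_at probe set of Gbp6 and the Gbp8 probe set. The other 4, both of Gbp2, that of Gbp3 and 1447927_at of Gbp6, overlapped by 0.03 to 0.34. The count was 7 of 8 without 0 Se liver replicate 1 and 6 of 8 without 0.1 Se liver replicate 1. It was 4 or 5 without any other liver array. These counts, added after seeing the data, cannot fall below the 4 seen with all arrays, since leaving out an array creates no overlap.

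Gbp7 gave the cleanest separation in liver. Its 1425156_at probe set read 9.99, 10.36 and 10.10 in 0.1 Se liver, against 9.28, 9.35 and 9.25 in 0 Se liver, a gap of 0.64 and a difference of 0.85 ± 0.14. On 1434380_at it read 10.74, 11.14 and 10.63 in 0.1 Se liver and 10.13, 9.91 and 10.33 in 0 Se liver, a difference of 0.71 ± 0.16. On either Gbp7 probe set every 0.1 Se array lay above every 0 Se array.

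Gbp8 again had the widest difference, 1.21 ± 0.35 or 2.31-fold, but its arrays were scattered. It read 10.07, 10.26 and 9.73 in 0.1 Se liver, against 9.66, 7.95 and 8.80 in 0 Se liver. The diets were only 0.06 apart, and the difference was 0.78 without 0 Se liver replicate 2, the lowest array. Gbp6 on 1438676_at read 10.17, 10.79 and 10.47 in 0.1 Se liver and 9.85, 9.83 and 9.55 in 0 Se liver, a difference of 0.73 ± 0.17. On 1447927_at it read 9.96, 11.20 and 10.30 in 0.1 Se liver and 9.81, 10.05 and 9.72 in 0 Se liver, a difference of 0.62 ± 0.26 that was 0.27 without 0.1 Se liver replicate 2. On 1447927_at 1 array of 0.1 Se liver lay within the range of the 0 Se arrays.

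Gbp2 and Gbp3 did not separate the diets in liver. Gbp2 read 8.72, 9.65 and 8.52 in 0.1 Se liver, against 8.73, 8.36 and 7.91 in 0 Se liver on 1418240_at, a difference of 0.63 ± 0.30. On 1435906_x_at the values were 8.22, 9.33 and 8.18 in 0.1 Se liver and 8.52, 7.44 and 7.45 in 0 Se liver, a difference of 0.77 ± 0.36. On both, 0.1 Se liver replicate 2 was high, and without it the differences were 0.29 and 0.40. On 1418240_at the difference was 0.42 when replicate 3 of 0 Se liver, the lowest, was left out. Gbp3 read 9.13, 9.91 and 9.18 in 0.1 Se liver and 9.16, 8.23 and 8.77 in 0 Se liver, a difference of 0.69 ± 0.27. It was 0.43 without replicate 2 of 0.1 Se liver, the highest array, and 0.44 without replicate 2 of 0 Se liver, the lowest.

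**Figure D2:**
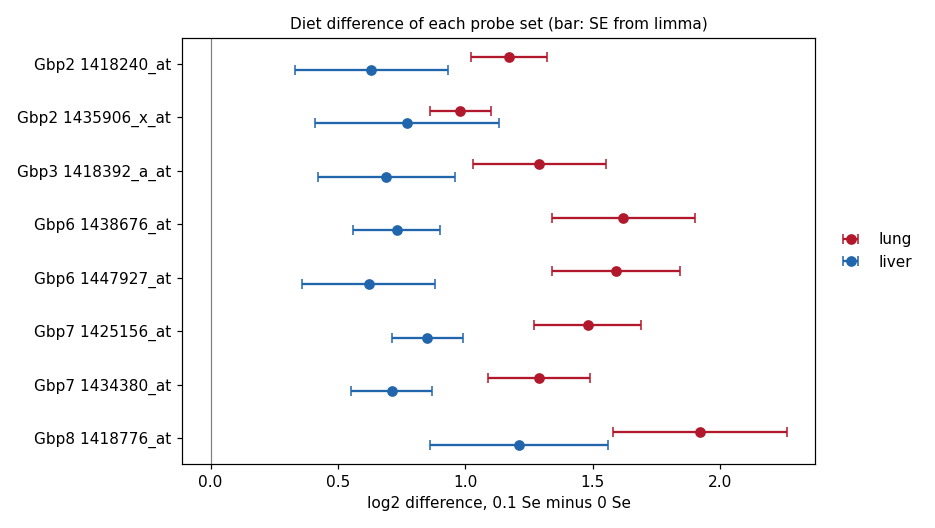
Difference in log2 signal, 0.1 Se minus 0 Se, of each GBP probe set in lung and in liver, with the SE from limma (bar). All 16 differences lie above 0, and on each probe set the lung value, from 0.98 to 1.92, lies above the liver value, from 0.62 to 1.21.

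On each of the 8 probe sets the difference between the diets was wider in lung than in liver. The lung difference minus the liver difference ran from 0.20 ± 0.42 (SE) for Gbp2 on 1435906_x_at to 0.96 ± 0.41 for Gbp6 on 1447927_at, with a median of 0.61 over the 8 and of -0.001 over the 15112 probe sets compared in both tissues. The values were 0.89 ± 0.36 for the other Gbp6 probe set, 0.71 ± 0.56 for Gbp8, 0.63 ± 0.27 and 0.58 ± 0.29 for Gbp7, 0.60 ± 0.42 for Gbp3 and 0.54 ± 0.36 for the other Gbp2 probe set. Without 0 Se liver replicate 1 the value of Gbp2 on 1435906_x_at was -0.16, and it was the only one of the 8 to change sign without a single array. Without any 1 array the value ran from 0.29 to 1.16 for Gbp8, from 0.38 to 0.89 for Gbp3 and from 0.32 to 0.89 for Gbp2 on 1418240_at, with 0 Se liver replicate 1 left out at the low end for Gbp8 and Gbp3 and 0.1 Se liver replicate 3 for Gbp2. Since both diet contrasts were used to choose the genes, these values have no test.

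The members moved together from array to array within a group as well as between diets. In 0.1 Se liver, replicate 2 had the highest signal of the 3 arrays on 8 of 8 probe sets, and in 0 Se lung replicate 1 did so on 8 of 8. In 0.1 Se lung, replicate 3 had the lowest signal on 8 of 8 and replicate 2 the highest on 7 of 8. The 0 Se liver arrays had no such order on all probe sets, with replicate 1 highest on 5, replicate 2 on 2 and replicate 3 on 1. Averaged over the 5 genes (1 probe set each, that of the highest mean signal), the family read 12.13, 12.35 and 11.50 in 0.1 Se lung and 11.00, 10.38 and 10.24 in 0 Se lung. It read 9.72, 10.43 and 9.67 in 0.1 Se liver and 9.50, 8.90 and 9.11 in 0 Se liver. On this average the diets did not overlap in either tissue. After the mean of each tissue was subtracted, Pearson's r of a single GBP probe set with this average ran from 0.896 to 0.986 over the 12 arrays, which share diet and array scaling and in part the values averaged.

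The 3 genes with 2 probe sets gave like differences between the diets on both. The probe sets of a gene differed in the diet difference by 0.20, 0.03 and 0.19 in lung for Gbp2, Gbp6 and Gbp7, and by 0.14, 0.11 and 0.14 in liver. Pearson's r between both probe sets of a gene over the 12 arrays, with the tissue mean subtracted, was 0.94 for Gbp2 and 0.97 for each of Gbp6 and Gbp7. These are descriptions over arrays that share the diet groups.

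Between tissues, a contrast that the choice of genes did not use, most GBP mRNAs were higher in lung and Gbp6 depended on the probe set. In 0.1 Se mice 7 of 8 probe sets were higher in lung and 1 was lower (limma, adjusted p under 0.05 over 15814 probe sets), where 42.2% of all probe sets were called higher and 28.8% lower. On the 0 Se diet 6 were higher, 1 was lower and 1 did not pass, against 43.4% called higher and 31.0% lower of 15922. The median difference of the 8, lung minus liver, was 1.99 in 0.1 Se and 1.31 in 0 Se, against 0.202 and 0.186 over all probe sets. With so many probe sets called in either direction, the count of 7 is read beside a high background.

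Gbp2 had the largest tissue difference. On 1418240_at it averaged 12.36 ± 0.34 in 0.1 Se lung and 8.96 ± 0.60 in 0.1 Se liver (SD, n = 3 each), a difference of 3.39 ± 0.27 (SE) or 10.5-fold (limma adjusted p = 8.96e-07). The means on the 0 Se diet were 11.18 ± 0.09 in lung and 8.33 ± 0.41 in liver, a difference of 2.85 ± 0.18 or 7.20-fold (limma adjusted p = 7.56e-08). On 1435906_x_at the differences were 3.82 ± 0.27 in 0.1 Se and 3.61 ± 0.25 in 0 Se mice. On both probe sets and in both diets every lung array was above every liver array, by at least 2.32 on the log2 scale.

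The probe sets of Gbp7 gave nearly the same tissue difference. In 0.1 Se mice the difference was 2.19 ± 0.19 on 1425156_at and 2.20 ± 0.21 on 1434380_at (limma adjusted p = 2.08e-06 and 3.74e-06). On the 0 Se diet it was 1.56 ± 0.16 and 1.61 ± 0.15. Gbp3 differed by 1.51 ± 0.27 in 0.1 Se (limma adjusted p = 0.000432) and by 0.91 ± 0.25 in 0 Se mice (limma adjusted p = 0.00694). Gbp8 differed by 1.78 ± 0.22 in 0.1 Se mice, 3.44-fold (limma adjusted p = 2.66e-05). With 0 Se its lung and liver arrays overlapped by 0.42, and the difference was 1.07 ± 0.43 (limma adjusted p = 0.0420). This call was lost on leaving out replicate 1 of 0 Se lung (0.62), replicate 2 of 0 Se liver (0.64) or replicate 3 of 0 Se liver (1.07), and over all alternatives the adjusted p of Gbp8 ran from 0.000956 to 0.227.

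**Figure D3:**
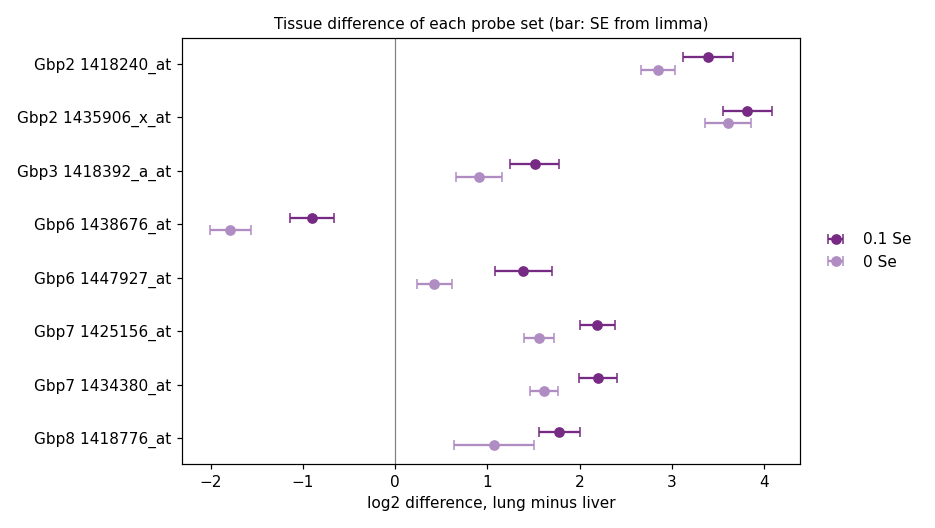
Difference in log2 signal, lung minus liver, of each GBP probe set in 0.1 Se and 0 Se mice, with the SE from limma (bar). Gbp2 lies farthest to the right, and Gbp6 lies above 0 on 1447927_at and below 0 on 1438676_at in both diets.

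The probe sets of Gbp6 gave opposite tissue differences. On 1447927_at Gbp6 averaged 11.87 ± 0.51 in 0.1 Se lung and 10.48 ± 0.64 in 0.1 Se liver, a difference of 1.39 ± 0.31 (limma adjusted p = 0.00211). On 1438676_at it averaged 9.58 ± 0.50 in 0.1 Se lung and 10.48 ± 0.31 in 0.1 Se liver, a difference of -0.90 ± 0.24 (limma adjusted p = 0.00623). In 0 Se mice the differences were 0.42 ± 0.19 on 1447927_at, which did not pass (limma adjusted p = 0.0595), and -1.79 ± 0.22 on 1438676_at (limma adjusted p = 1.86e-05). The 1447927_at probe set passed on leaving out replicate 2 (0.54) or 3 (0.55) of 0 Se lung or replicate 2 of 0 Se liver (0.52), and on leaving out replicate 1 of 0 Se lung its difference was 0.18 (limma adjusted p = 0.249). Lung arrays of both diets thus held less of what 1438676_at measures than liver arrays of the same diet, although in each tissue both probe sets were higher in 0.1 Se.

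To show the probe sets of a gene against each other without the scaling of arrays, their difference was taken within each array of both diets. It was added after the tissue differences had been seen, restates them on the same arrays, and is a description with no test. For Gbp6, 1438676_at minus 1447927_at averaged -2.31 ± 0.16 (SD, n = 6) in lung, with values from -2.50 to -2.09, and -0.06 ± 0.24 in liver, with values from -0.40 to 0.21. The tissues did not overlap, and the diets lay together in each. For Gbp2, 1435906_x_at minus 1418240_at averaged 0.13 ± 0.19 in lung and -0.46 ± 0.25 in liver, and the ranges overlapped (lowest lung -0.22, highest liver -0.21). For Gbp7, 1425156_at minus 1434380_at averaged -0.79 ± 0.13 in lung and -0.76 ± 0.20 in liver. Lung minus liver, the gap between probe sets was thus -2.25 for Gbp6, 0.59 for Gbp2 and -0.03 for Gbp7. Whether the Gbp6 probe sets read different transcripts was not tested.

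**Figure D4:**
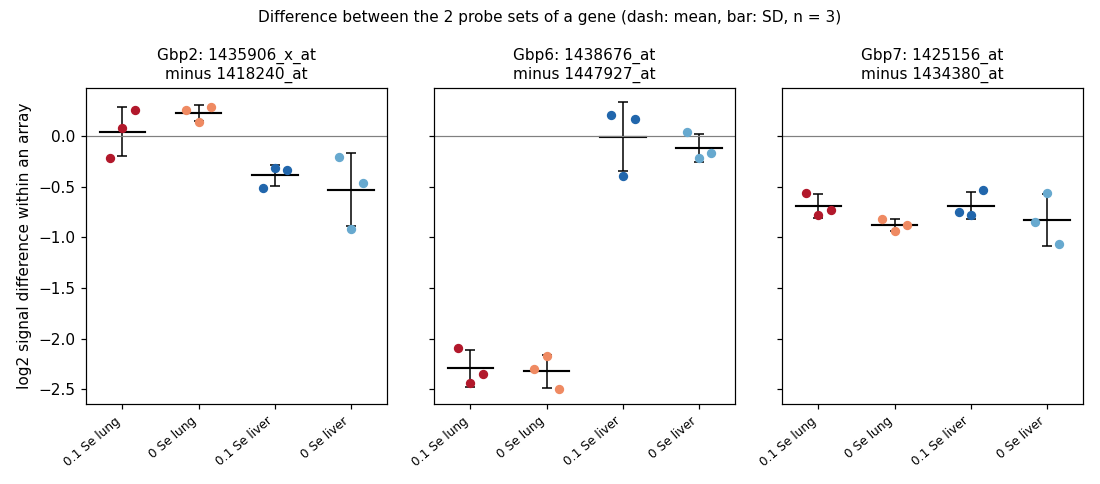
Difference in log2 signal between both probe sets of Gbp2, Gbp6 and Gbp7 within each array (points), with the mean (dash) and SD (bar) of 3 arrays in each group. The Gbp6 points lie from -2.50 to -2.09 in lung and from -0.40 to 0.21 in liver, while those of Gbp7 overlap between tissues.

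The order of the 4 groups followed from these differences. By group mean, Gbp2, Gbp3 and Gbp7 ran from 0.1 Se lung through 0 Se lung and 0.1 Se liver to 0 Se liver. For Gbp3 the neighbours in the middle overlapped, with 9.26 to 10.12 in 0 Se lung and 9.13 to 9.91 in 0.1 Se liver. Gbp8 averaged 10.02 in 0.1 Se liver and 9.88 in 0 Se lung, and 1447927_at of Gbp6 averaged 10.48 in 0.1 Se liver and 10.28 in 0 Se lung, with overlapping arrays on both. The 1438676_at probe set of Gbp6 had both liver groups above both lung groups by their means, and 0.1 Se lung (9.00 to 9.92) overlapped 0 Se liver (9.55 to 9.85).

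Gbp2b, the chromosome 3 relative long called Gbp1 in the mouse and not one of the 8 genes, had a different tissue pattern. Its linear signals were 792, 920 and 795 in 0.1 Se liver, against 803, 256 and 538 in 0 Se liver. In lung they were 254, 178 and 111 in 0.1 Se, and the probe set was blank on all 3 0 Se arrays, where a blank stands for an absent call or a signal under 100. The liver diets overlapped and the difference was 0.80 ± 0.33 (limma adjusted p = 0.732). No fold was computed in lung against blank arrays.

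Other genes that act with the GBPs were taken by list, and 1 list had genes past the test. Immunity-related GTPases (IRGs) are smaller interferon-induced GTPases that mark and attack the same vacuoles. All 5 IRG genes measured of 9 (Iigp1, Irgm2, Igtp, Ifi47 and Irgm1) passed in lung and were higher in 0.1 Se, with a median difference of 1.68, where 0.0739% of all probe sets in lung passed in this direction. In liver 0 of the 5 passed, against a background of 0.0121%, and the median was 0.59 (smallest limma adjusted p = 0.159, for Igtp at 1.11 ± 0.16). The calls in lung numbered 0 without replicate 2 of 0.1 Se lung, 0 without replicate 2 of 0 Se lung, 1 without replicate 3 of 0 Se lung and 0 with eBayes run with no trend. IRG genes had also been in view when the lists were drawn up, so their direction is no independent evidence.

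The mean of these 5 IRG genes had the shape of the GBP mean across diets and not across tissues. It read 12.35, 12.41 and 11.89 in 0.1 Se lung and 11.09, 10.40 and 10.48 in 0 Se lung. It read 11.78, 12.40 and 11.91 in 0.1 Se liver and 11.65, 11.34 and 11.35 in 0 Se liver. The diets were separated in both tissues, and the same arrays stood out as for the GBPs, 0.1 Se liver replicate 2 at the top and 0.1 Se lung replicate 3 at the bottom of their groups. By tissue, the IRG mean was 12.21 ± 0.29 in 0.1 Se lung and 12.03 ± 0.33 in 0.1 Se liver, and 10.66 ± 0.38 in 0 Se lung and 11.45 ± 0.18 in 0 Se liver (SD, n = 3 each). The GBP mean was 11.99 ± 0.44 in 0.1 Se lung and 9.94 ± 0.42 in 0.1 Se liver, and 10.54 ± 0.41 in 0 Se lung and 9.17 ± 0.30 in 0 Se liver.

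**Figure D5:**
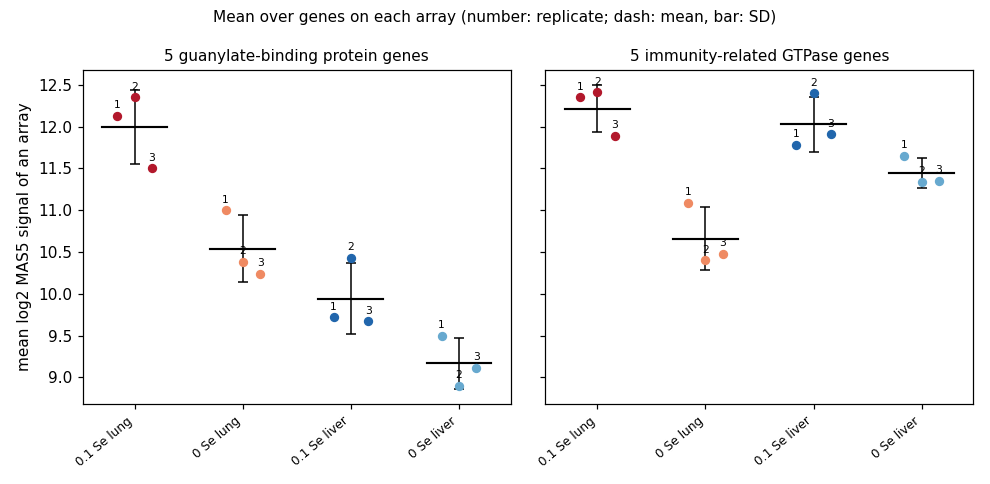
Mean log2 MAS5 signal of the 5 GBP genes (left) and the 5 IRG genes (right) on each array, numbered by replicate, with the mean (dash) and SD (bar) of 3 arrays. Both means separate the diets in lung and in liver, and only the GBP mean has both lung groups above both liver groups.

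The genes that carry the interferon signal did not pass in either tissue. Of the 14 genes of interferon-γ signalling 12 had a probe set, and Ifng was not analysed here. In lung 11 were tested, 0 passed limma's adjustment and 2 were higher at an unadjusted p under 0.05 (3.55% of all probe sets in lung), with a median of 0.11. These were Irf9, part of the ISGF3 complex that binds the ISRE (0.57 ± 0.12, limma adjusted p = 0.204), and Irf1, which binds the same element (0.42 ± 0.11, limma adjusted p = 0.301). The receptor genes Ifngr1 and Ifngr2 differed by 0.10 ± 0.08 and 0.16 ± 0.13. In liver the median was 0.15, 0 of 11 passed and 2 were higher unadjusted (2.94% of all probe sets in liver), Irf8 (0.47 ± 0.18) and Irf1 (0.43 ± 0.18). For type I interferon signalling the median over 6 genes was 0.16 in lung and 0.00 in liver, 0 passed in either, and Irf7 in lung (0.50 ± 0.17, limma adjusted p = 0.466) was the only one at an unadjusted p under 0.05.

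The lists of genes that place GBPs on membranes, act downstream of them or are related to them did not pass either. The 10 autophagy-related genes that help place GBPs and IRGs on vacuoles had a median of 0.00 in lung and 0.05 in liver, with 0 passing in either and 1 at an unadjusted p under 0.05, Map1lc3a in lung (-0.27 ± 0.09, limma adjusted p = 0.443). The inflammasome genes had a median of 0.31 over 7 in lung and 0.24 over 5 in liver. Gsdmd, whose product forms the pore of pyroptosis, was the only one of them at an unadjusted p under 0.05, at 0.28 ± 0.11 in lung (limma adjusted p = 0.597) and 0.45 ± 0.16 in liver (limma adjusted p = 0.659). Genes of prenylation, which fixes Gbp2 and Gbp5 to membranes, had a median of 0.00 over 4 in lung and -0.06 over 4 in liver, with 0 at an unadjusted p under 0.05. The 2 other large GTPases tested in lung were the atlastins Atl1 and Atl3. The 3 tested in liver were these and Gbp2b, and 0 passed in either tissue. The Mx genes, Gbp10, Gbp11 and Gvin1 were on the list but were not tested in either tissue. Over all lists 5 of 45 genes passed in lung and 0 of 44 in liver, and at an unadjusted p under 0.05 there were 9 higher and 1 lower in lung and 7 higher and 0 lower in liver. Over all probe sets 3.55% were higher and 4.12% lower by this criterion in lung, and 2.94% higher and 3.71% lower in liver. The methods' t-test with an unadjusted p under 0.05 and a 1.5-fold change took 5 list genes in lung and 1 in liver, all higher in 0.1 Se, where 0.485% of all probe sets in lung and 0.501% in liver were taken in this direction, and 0 in either after adjustment. The IRG genes, which had been in view when the lists were drawn up, are part of these counts.

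Outside the family, 8 genes followed the GBP mean most closely by Pearson's r over the 12 arrays with the tissue mean subtracted, among 12066 probe sets of other genes listed on every array. They were Ifi47 (0.985), Herc6 (0.976), Igtp (0.963), Tapbpl (0.956), Irgm1 (0.955), Irgm2 (0.938), Plxnc1 (0.934) and Parp9 (0.925). Ifi47, Igtp, Irgm1 and Irgm2 are IRGs, and Herc6 is an interferon-induced ubiquitin ligase. Tapbpl edits the peptides held by MHC class I, and Parp9 is an interferon-induced member of the PARP family. Within a tissue the r of Ifi47 was 0.989 in lung and 0.973 in liver. The size of change was not the same, with 0.73 in lung and 0.51 in liver for Herc6 and 0.27 in lung and 0.19 in liver for Plxnc1. These r values describe 12 arrays that share the diet groups and their scaling.

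Summed signals of NK cell and T cell markers and of neutrophil markers were higher in 0.1 Se lung, as the GBPs were. No marker passed limma's adjustment in lung. There, 7 of 7 tested NK cell and T cell markers lay above 0, 6 of them without overlap between the diets. By limma, 6 were higher at an unadjusted p under 0.05, against 3.55% of all probe sets in lung. Over all probe sets compared in lung 47.9% lay above 0, and 6.07% of those listed on every lung array were separated in this direction. Over the 11 of 13 markers with a probe set, the summed linear signal was 5834 to 10729 in 0.1 Se lung and 3380 to 5340 in 0 Se lung. Of the defining genes of T cells, Cd3e and Cd8a were blank on all 6 lung arrays. The neutrophil markers summed to 4469 to 17343 in 0.1 Se lung and 1375 to 3370 in 0 Se lung, with 3 of 4 tested above 0 and without overlap. By limma, 3 were higher at an unadjusted p under 0.05. Sums of macrophage markers overlapped, with 11783 to 14796 in 0.1 Se lung and 11419 to 12078 in 0 Se lung. Of the 8 tested 7 lay above 0, 3 of them without overlap, and 1 was higher at an unadjusted p under 0.05. Endothelial markers, on cells that also make GBPs, overlapped, with 33927 to 44813 in 0.1 Se lung and 37526 to 40123 in 0 Se lung, and so did B cell markers, with 991 to 1498 in 0.1 Se lung and 736 to 2249 in 0 Se lung. No tested endothelial or B cell marker was higher at an unadjusted p under 0.05. The part of these cells in the GBP differences was not tested.

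In liver, the macrophage markers were higher in 0.1 Se, as the GBPs were, with 10 of 10 above 0 and 5 without overlap between the diets. By limma, 5 macrophage markers were higher at an unadjusted p under 0.05, against 2.94% of all probe sets in liver. The summed signal of the macrophage markers was 17966 to 22215 in 0.1 Se liver and 12651 to 16821 in 0 Se liver. Over all probe sets compared in liver 49.0% lay above 0, and 4.99% of those listed on every liver array were separated in this direction. NK cell and T cell markers were at the edge of detection, with sums of 434 to 603 in 0.1 Se liver and 0 to 390 in 0 Se liver and with 6 of the 11 blank on all 6 arrays, Ncr1, Cd3e and Cd8b1 among them. Endothelial markers gave 2480 to 3064 in 0.1 Se liver and 2454 to 2674 in 0 Se liver, with none of 5 tested separated, and hepatocyte markers overlapped, with 314071 to 326857 in 0.1 Se liver and 261595 to 342166 in 0 Se liver. The neutrophil sums were 127 to 639 in 0.1 Se liver and 0 to 166 in 0 Se liver. Of 2 tested NK cell and T cell markers in liver, 1 was higher at limma's unadjusted p under 0.05, and no tested endothelial or hepatocyte marker was. By limma's adjusted p, 0 of the markers passed in either tissue. In liver as in lung, the part of these cells in the GBP differences was not tested.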

How the data were processed

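The members and gene lists were chosen with earlier results of these data known. Total RNA of lung and liver had been labelled with a 3′ IVT kit and hybridized to Affymetrix mouse genome arrays, 12 in 4 groups of 3, placed by the diet and tissue labels. The authors computed MAS5 signals, scaled each array by itself and dropped absent calls. R 2.15.2 and affy 1.36.0 are named in the submitters' processing notes. The deposited values are log2 signals from 6.64 (a signal of 100) to 16.41, and 112116 cells are blank, which can mean an absent call or a signal under 100. Values were used as deposited, without the 58 control probe sets. The genome build behind the probe sets is not given in the sources used here.

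Gene names came from the platform annotation, updated by Entrez number through RefSeq's gene names. Of 29409 probe sets 24504 had a single gene, 660 several and 4245 none. A probe set was tested with at least 2 values in each group by limma 3.58.1 in R 4.3.3 (lmFit, eBayes with a trend), with Benjamini-Hochberg adjustment over all probe sets tested and a threshold of 0.05. Diet differences are 0.1 Se minus 0 Se and tissue differences lung minus liver. For genes of the lists the probe set of the highest mean signal was used, up to 6 genes of a list were named by smallest p, and 8 genes by likeness to the family mean. Sums of markers took blanks as 0. Differences within an array were taken in Python 3.11.15, figures were drawn with matplotlib 3.10.9, and files were read with version 1.17.8 of data.table. The fit was tested on simulated data. The number of arrays limits the precision, and an exact test of 3 against 3 cannot give a p under 0.1. Whether a lung and a liver array came from 1 mouse is not given in the labels. Alternatives covered filters, normalization, the log scale, eBayes settings, weights for arrays, a block for the replicate number, 1 fit of 12 arrays, the methods' t-test, and each array left out.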

Additional observations from a re-analysis of the deposited data

How the results depend on the processing

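Without any 1 array the median diet difference of the GBPs ran from 1.19 to 1.65 in lung and from 0.50 to 0.89 in liver, and under the other alternatives from 1.28 to 1.52 in lung and from 0.69 to 0.83 in liver. Every GBP probe set compared stayed above 0 in both tissues in each of these runs, and the filter on mean signal left Gbp2 on 1435906_x_at out of liver. With 1 value a gene or without probe sets ending in _x_at or _s_at the medians were 1.29 to 1.39 in lung and 0.69 to 0.70 in liver. The median of the lung difference minus the liver difference ran from 0.44 to 0.88 without any 1 of the 12 arrays and from 0.36 to 0.77 otherwise, and for Gbp2 on 1435906_x_at it ran from -0.16 (without 0 Se liver replicate 1) to 0.58.

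The tissue comparison called 8 GBP probe sets in 0.1 Se mice, 8 without any 1 array and 6 by the methods' t-test after adjustment (Gbp6 lost both calls, adjusted p = 0.0642 and 0.0847). In 0 Se mice it called 7, and 5 to 8 under the alternatives. Quantile normalization moved the median lung minus liver difference of all probe sets by 0.254 in 0.1 Se and 0.249 in 0 Se, and median centring by -0.203 and -0.196. Among called probe sets 59.4% and 58.4% were higher in lung as deposited, 70.2% and 69.3% after quantile normalization and 50.0% and 49.4% after median centring. No GBP probe set changed direction under either scaling, but Gbp6 on 1447927_at passed in 0 Se mice after quantile normalization (0.69, limma adjusted p = 0.00726) and Gbp8 did not pass after median centring (0.87, limma adjusted p = 0.0831).

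The count of list genes past the test in lung was 5, and it was 0 with no filter on blanks, 3 with a mean signal above the median, 3 after quantile normalization, 0 with no trend, 1 with a robust trend and 0 by the methods' t-test after adjustment. It ran from 0 to 5 without any 1 array in lung and from 0 to 1 in liver, where 1 passed without 0.1 Se liver replicate 1. The cause of these changes was not tested.

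Deviations of same-numbered lung and liver arrays from their group means correlated at -0.04 to 0.02 in 0.1 Se mice and at 0.06 to 0.11 in 0 Se mice. Between diets, where the same number cannot be the same mouse, the correlations ran from -0.19 to 0.15. Replicate numbers were not taken to pair samples, since the labels do not give pairs. With the replicate number as a block, a paired fit, the list count was 5 in lung and 0 in liver, the GBP tissue calls were 8 in each diet, and Gbp6 on 1447927_at passed in 0 Se mice (limma adjusted p = 0.0430). In the tissue comparison of 0 Se mice 3 of 3 numbers correlated best with themselves, where arrays of other numbers averaged -0.05, a hint from the data and not the design.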
